A study of Mus musculus with 24 samples.

Results

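The genes described here are 40 keratin, desmosome and epidermal genes, followed through reprogramming of mouse neural precursor cells (NPCs) to induced pluripotent stem cells with and without interferon-γ (IFNγ). They were chosen as members of known families, and the choice started from Dsg1b and Vsig8 because both were lower with IFNγ at day 7. Those day 7 differences are therefore given as a description, and counts past a threshold there are no test of them. All 40 were found, by the gene symbol of their Ensembl identifier, among the 37315 genes of the expression table. They comprise 7 simple epithelial keratins, 4 basal layer genes (Krt5, Krt14, Krt15 and Trp63), 4 suprabasal and mucosal keratins, 4 stress and appendage keratins, 7 desmosomal cadherins, 6 desmosomal plaque and membrane genes, 6 cornified envelope genes, and Sfn and Vsig8.

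The RNA-seq experiment held 24 libraries, 2 for each of 12 populations, all from 1 female embryonic stem cell (ESC) line of hybrid 129S1/SvImJ, CAST/EiJ background. In all populations the cells carried a GFP reporter in Hprt on the Musculus X chromosome (X-GFP, lost when that X is silenced), a truncated Tsix that biases silencing to that X, a doxycycline-inducible cassette of cMyc, Klf4, Oct4 and Sox2 with its transactivator in Sp3, and a Nanog promoter-RFP reporter. NPCs were differentiated from the ESCs, and doxycycline then started reprogramming on irradiated male embryonic fibroblasts, with or without IFNγ at 10 ng/ml from day 0 to day 5. Cells unstained by the dye that marked the feeders were collected on day 2, SSEA1-positive cells on day 5, and SSEA1-positive cells at day 7 split by reporter signal into 3 fractions called X-GFP–negative, –medium and –high. The reprogramming medium held serum, LIF, ascorbic acid and doxycycline, and ESCs were grown in serum/LIF on gelatin. The methods call the replicates independent without stating whether they were separate cultures or rounds of reprogramming, so p-values measure only the spread between these samples of a single line, which may be technical. In bulk samples such as these, fewer cells of a type and less RNA per cell cannot be told apart. The sort also changed with the day, so differences between days cannot be told apart from differences in the cells collected.

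Keratins are the intermediate filament proteins of epithelia, and a filament forms only from a type I chain paired with a type II chain, such as Krt18 with Krt8 in simple epithelia or Krt14 with Krt5 in the basal epidermis. The filaments end at desmosomes, where cadherins (desmogleins and desmocollins) bridge neighboring cells and are tied to the keratins through plakoglobin (Jup), plakophilins and desmoplakin (Dsp). In the upper epidermis, transglutaminases cross-link proteins such as involucrin, loricrin and the small proline-rich proteins into a cornified envelope, and fibroblasts reprogramming to pluripotency are known to take on an epithelial state early.

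Promoter windows are shown for Krt8, the member most abundant per kilobase in every reprogramming population, with its partner Krt18, and for 2 genes whose levels spanned a wide range, Sprr1a, a cornified envelope precursor, and Vsig8, an immunoglobulin-domain membrane protein from which the gene choice started. The sequences are from RefSeq (GRCm38.p6), up to 250 bases before the start of transcription, in the direction of the gene. Krt8 (chr15:101996698-102004482, minus strand) and Krt18 (chr15:102028180-102032027, plus strand) are divergently transcribed neighbors, and the windows printed are chr15:102004483-102004592 and chr15:102027966-102028179. For Sprr1a (chr3:92483952-92485895, minus strand) the window is chr3:92485896-92486131, and for Vsig8 (chr1:172555938-172563717, plus strand) it is chr1:172555688-172555937. Capitals mark matches on either strand to the motifs TATAAA (the core promoter box bound by TBP), TGANTCA (the letters of AP-1 sites) and GGGNGTGG (the letters of Klf sites).
Krt8: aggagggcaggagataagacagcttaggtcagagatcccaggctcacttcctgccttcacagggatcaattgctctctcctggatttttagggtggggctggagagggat
Krt18: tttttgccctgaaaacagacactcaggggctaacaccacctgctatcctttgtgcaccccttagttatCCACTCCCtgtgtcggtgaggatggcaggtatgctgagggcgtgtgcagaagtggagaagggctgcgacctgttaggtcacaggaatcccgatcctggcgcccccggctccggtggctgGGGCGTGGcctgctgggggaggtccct
Sprr1a: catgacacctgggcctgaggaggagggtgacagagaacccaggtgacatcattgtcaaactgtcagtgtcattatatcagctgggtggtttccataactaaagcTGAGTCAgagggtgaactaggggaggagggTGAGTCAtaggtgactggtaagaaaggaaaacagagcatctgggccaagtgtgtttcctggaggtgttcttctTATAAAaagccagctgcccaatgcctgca
Vsig8: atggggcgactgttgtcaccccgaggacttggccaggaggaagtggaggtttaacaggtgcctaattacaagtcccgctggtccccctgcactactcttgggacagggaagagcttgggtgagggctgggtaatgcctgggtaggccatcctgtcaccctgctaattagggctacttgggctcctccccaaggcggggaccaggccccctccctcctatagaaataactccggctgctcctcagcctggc
Of the 17 members with such a window, 5 held TATAAA (29.4%, against 14.3% of the 27025 genes with a window), 4 held TGANTCA (23.5% against 7.82%) and 3 held GGGNGTGG (17.6% against 17.9%). The first 2 motifs occurred together in Ivl, Lor and Sprr1a, all cornified envelope genes. A match is a description of the letters and not a measured binding site.

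Levels are read counts that the authors normalized for library size, and 24746109 to 37056508 reads per library fell on genes. The labels were checked on marker genes. The summed level of 7 pluripotency genes was 117920.0 to 126517 in ESCs and 786 to 1186 in NPCs, and 8 neural precursor genes summed to 49352 to 53695 in NPCs and 1159 to 1237 in ESCs. The 4 Y-linked genes, which the female line lacks and the male feeders carry, summed to 218 to 253 and 125 to 223 in control and IFNγ libraries of day 2 and to at most 12.5 in every other library. The day 2 libraries thus held Y-linked RNA that a female line cannot supply, and it is given beside the day 2 results.

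The summed level of the 40 genes was lowest in NPCs, higher on day 2, and highest among the X-GFP–negative control cells from day 7. It was 2345 and 3582 for the 2 NPC libraries, 10102 and 9141 for ESCs, 44741 and 30989 on day 2, 104061 and 84046 on day 5 and 161399 and 147069, 97439 and 96409 and 51146 and 41991 in the X-GFP–negative, –medium and –high control cells from day 7. With IFNγ the sums were 35063 and 23313 on day 2, 76987 and 75584 on day 5 and 49004 and 51778, 24801 and 30940.5 and 13499 and 15300.1 in the same 3 fractions from day 7. The control and IFNγ sums overlapped on day 2 and lay apart on day 5 and in all 3 fractions from day 7. The highest mean of a gene fell among X-GFP–negative control cells for 20 of the 40, in day 5 control cells for 8 and in day 2 control cells for 5, while ESCs held the highest mean of none. Dsc1, Krt1, Krt4, Krt23, Lor and Trp63 never passed 21.8 in any library. The p63 transcription factor, the master regulator of the epidermal lineage, was among them, with Trp63 between 0 and 13.2 in all libraries.

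**Figure D1:**
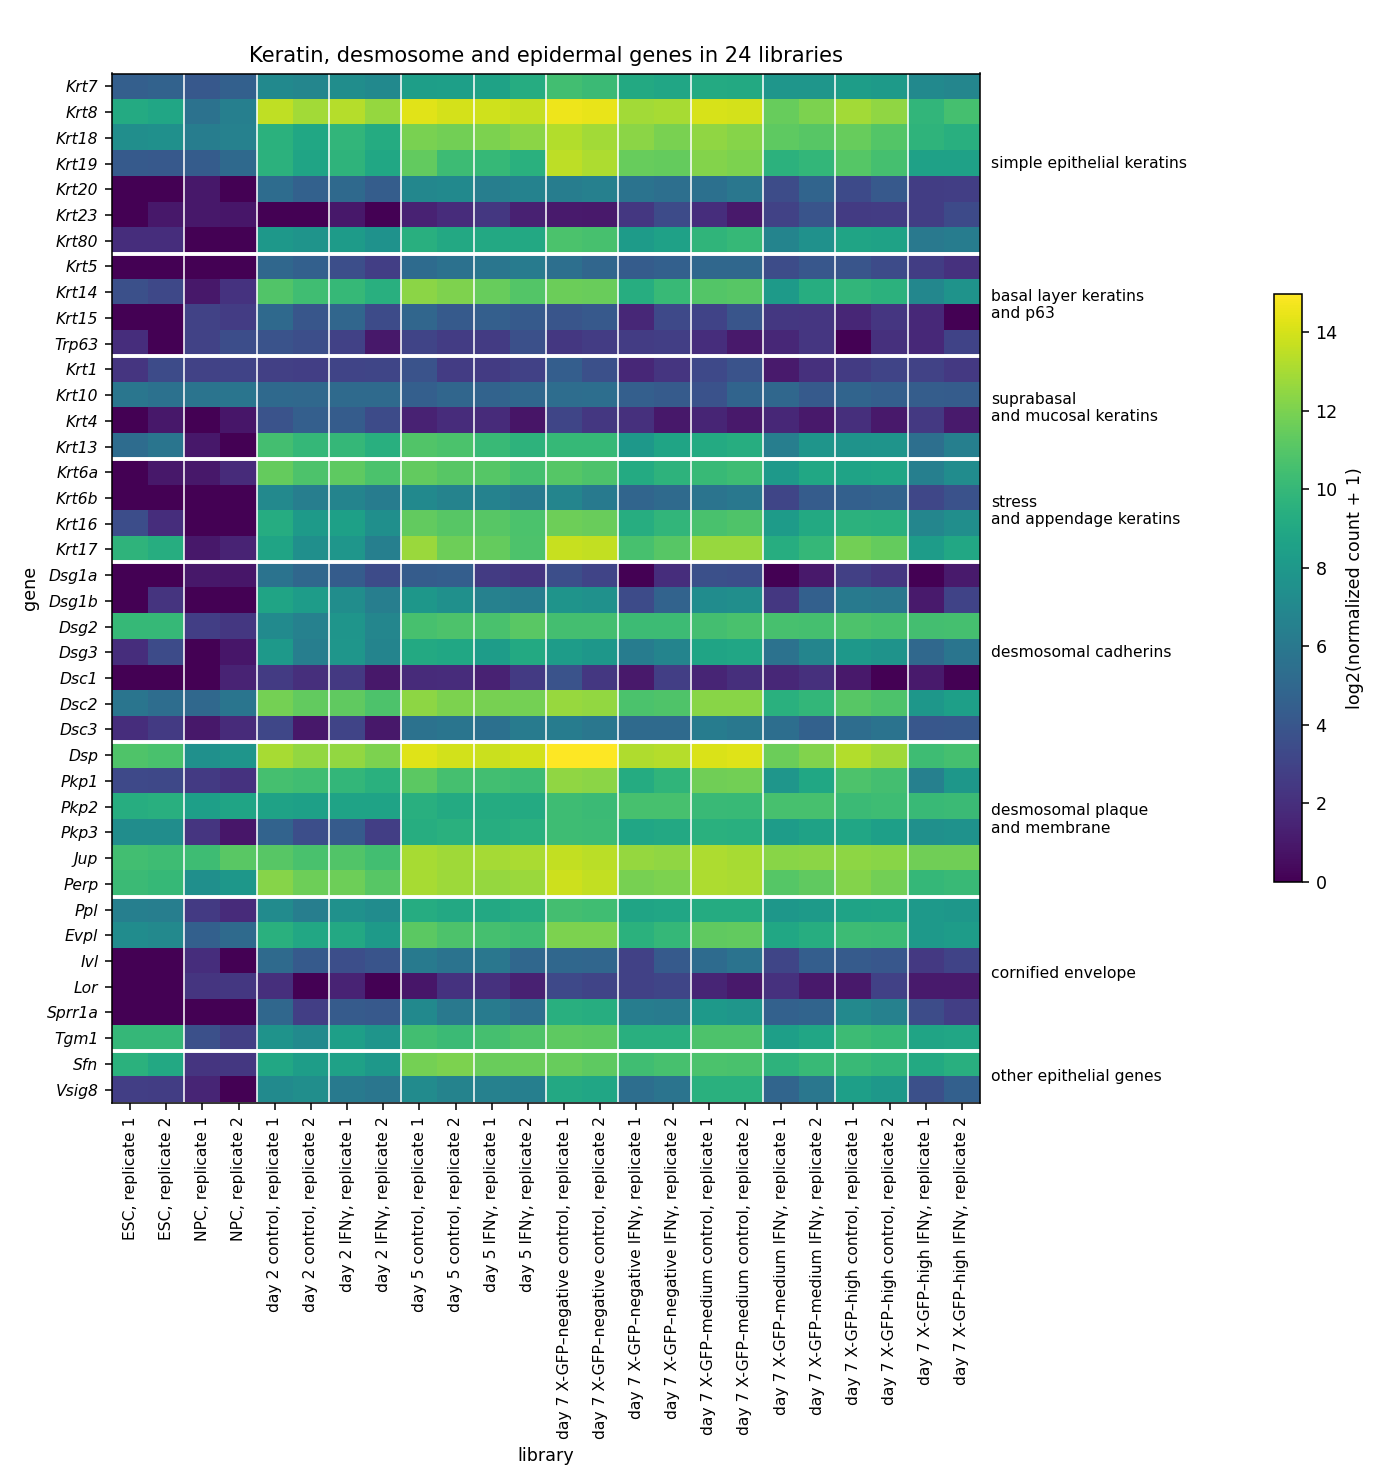
Levels of the 40 genes in the 24 libraries, as log2(normalized count + 1), with genes in rows grouped by role and libraries in columns by population. The rows of most keratins, desmosomal genes and cornified envelope genes brighten from NPCs to the X-GFP–negative control cells from day 7 and are paler in the IFNγ libraries from day 7, while Dsc1, Krt1, Krt4, Krt23, Lor and Trp63 stay pale throughout.

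The simple epithelial keratins Krt8 and Krt18 form the first keratin filaments of the embryo. Krt8 was 572 and 471 in ESCs, 49.6 and 86.1 in NPCs, 11896 and 7801 on day 2, 20567 and 16303 on day 5 and 25278 and 22690.3, 17368 and 16554 and 7520.5 and 5869.7 among X-GFP–negative, –medium and –high control cells from day 7. Its partner Krt18 was 170.0 and 179, 79.7 and 94.0, 751 and 494, 4061 and 3572 and 9943 and 7544, 5746 and 4831 and 2859.5 and 1977 in the same order. No library of day 2 overlapped the NPC libraries for either gene, and Krt8 was 145-fold and Krt18 7.17-fold higher on day 2 than in NPCs. Both rose again from day 2 to day 5, Krt8 by a log2 difference of 0.93 ± 0.19 (SE, adjusted p = 0.00442) and Krt18 by 2.64 ± 0.18 (adjusted p = 2.45e-05). These and all adjusted p-values come from limma on log2(normalized count + 1), two-sided, with the Benjamini-Hochberg adjustment over all genes with a mean above 10 in the comparison, and the threshold was 0.1.

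Krt19, the smallest keratin, was 19.4 and 33.4 in NPCs, 782 and 428 on day 2, 2676 and 1238 on day 5 and 11472 and 9141 among X-GFP–negative cells from day 7, the last step being a rise (log2 difference 2.49, SE 0.30, adjusted p = 0.00031). Krt7, a keratin of ducts and trophoblast, was 342 and 356 on day 5 and 1401 and 1195 among X-GFP–negative cells (log2 difference 1.89, SE 0.11, adjusted p = 3.52e-05). Krt80, which lies close to desmosomal plaques, was at 0 reads in both NPC libraries and 253 and 216 on day 2, at least 84.5-fold higher against the level of 3 reads over the NPC group. All 3 were highest in the X-GFP–negative fraction. Krt20, a keratin of gut and bladder lining, peaked instead on day 5, with 120.3 and 138, and fell to 80.1 and 92.3 among X-GFP–negative cells (log2 difference -0.58, SE 0.18, adjusted p = 0.0288). Krt23 did not exceed 13.6 in any library.

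The basal keratin Krt14 was far more abundant than its usual partner Krt5. Krt14 was 0.972 and 3.51 in NPCs, 1900.2 and 1315 on day 2, 5258 and 4383 on day 5 and 3121 and 3041 among X-GFP–negative cells from day 7, a rise to day 5 followed by a fall (log2 difference 1.60 ± 0.17 SE, adjusted p = 0.000167, then -0.64 ± 0.09, adjusted p = 0.00069). Krt5 was at 0 reads in ESCs and NPCs, 30.6 and 22.8 on day 2, at least 9.61-fold higher, and 36.2 and 46.2 on day 5. Per kilobase of exon, the only scale on which genes are compared here, Krt14 was 914 and Krt5 12.1 on day 2 in the control mean. Krt15, another basal keratin, was 33.6 and 14.9 on day 2 and did not exceed 33.6 in any library. These counts can share reads with close copies (Krt14, Krt16 and Krt17, and Krt6a and Krt6b), so the split within those groups is uncertain.

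Of the stress and appendage keratins, which mark wounded epidermis and hair follicles, Krt6a was 0.972 and 2.64 in NPCs and already 2728 and 1804 on day 2, near its highest level of 2716 and 2209.5 on day 5. Krt6b was at 0 reads in both NPC libraries and 129 and 82.4 on day 2, at least 38.1-fold higher. Krt16, also at 0 reads in NPCs, was 623 and 286 on day 2, at least 164-fold higher, 2666 and 2158 on day 5 and 3284 and 3014 among X-GFP–negative cells. Krt17 followed a later course than Krt6a. It was 422 and 174 on day 2, below the 844 and 655 of ESCs, then 6747 and 3328 on day 5 and 13436 and 12669 among X-GFP–negative cells from day 7, each above the population before it (log2 difference 4.12, SE 0.44, adjusted p = 0.000176, and log2 difference 1.46, SE 0.26, adjusted p = 0.00218). Among X-GFP–medium and –high control cells the means of Krt17 were 6564 and 3160.

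Krt13, a keratin of mucosal suprabasal layers, was 0.972 and 0 in NPCs, 1475 and 1022 on day 2, 1928 and 1707 on day 5 and 1052 and 1044 among X-GFP–negative cells, with the fall after day 5 passing the test (log2 difference -0.79, SE 0.09, adjusted p = 0.000221). Its usual partner Krt4 did not exceed 21.8 in any library. Krt10, the suprabasal epidermal keratin, was the only member with its highest mean in NPCs, at 52.5 and 56.2, and was 33.6 and 31.8 on day 2 (log2 difference -0.72, SE 0.25, adjusted p = 0.046). That call was lost without either day 2 library or the second NPC library, where the adjusted p passed 0.1. Krt1, which pairs with Krt10, stayed between 1.12 and 20.8.

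The balance of type II to type I keratins differed between the control populations. Summed per kilobase over the 8 type II and 10 type I members, the ratio was 2.06 and 2.19 in the 2 day 2 control libraries, 0.821 and 0.925 on day 5 and 0.545 and 0.564 among X-GFP–negative cells from day 7. It was 0.723 and 0.733 among X-GFP–medium and 0.633 and 0.653 among X-GFP–high control cells. Krt8 made up 82.7 and 82.3% of the type II sum on day 2. The ratio of Krt8 to Krt18 per kilobase was 0.456 and 0.672 in NPCs, 2.47 and 1.93 in ESCs, 11.6 and 11.6 on day 2, 3.72 and 3.35 on day 5 and 1.87 and 2.21 among X-GFP–negative cells. The control libraries of day 2 lay above all others, and those of day 5 lay above the control libraries from day 7. With IFNγ the ratio was 7.88 and 7.73 on day 2 and 2.69 and 1.75 on day 5, below the control libraries at both times, and an exact permutation test of 2 against 2 libraries cannot go below p = 0.33.

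**Figure D2:**
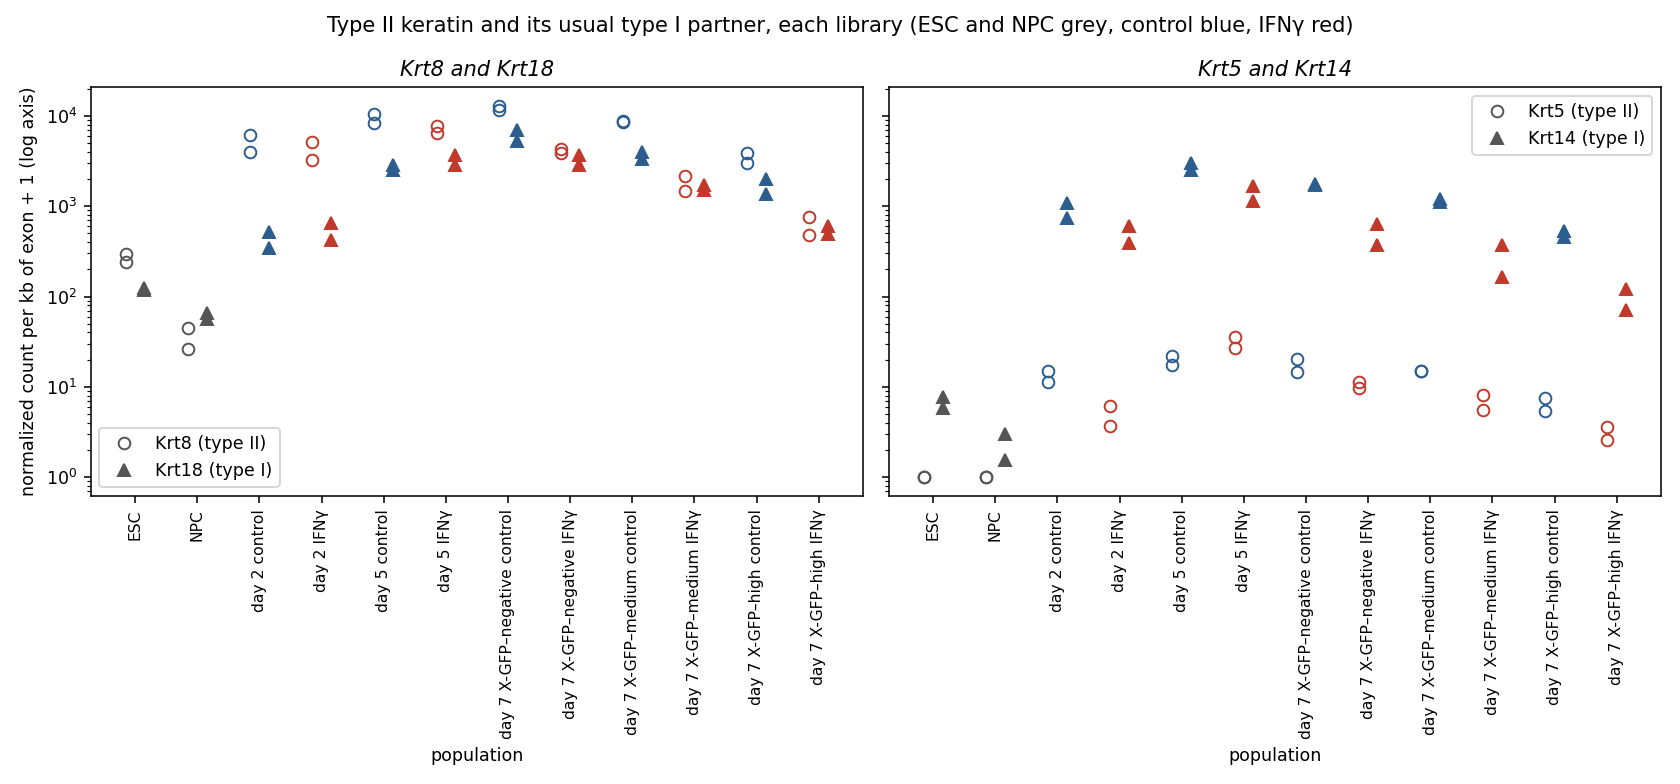
Keratin levels (normalized count per kilobase of exon + 1) by population, with 1 point per library in grey for ESCs and NPCs, blue for control and red for IFNγ. The y axis is log-scaled, circles are type II and triangles type I keratins. Krt8 was 11.6 times Krt18 in both day 2 control libraries and 1.87 and 2.21 times in the X-GFP–negative control libraries from day 7, and Krt14 exceeded Krt5 in every population from day 2 on.

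Among the desmosomal cadherins, Dsc2 and Dsg2 form the desmosomes of simple epithelia. Dsc2 was 32.1 and 54.5 in NPCs, 3615 and 2632 on day 2, 5608 and 4181 on day 5 and 6391 and 5917 among X-GFP–negative cells (72.2-fold higher on day 2 than in NPCs, adjusted p = 4.84e-05). Dsg2 was 5.83 and 4.39 in NPCs and 144 and 94.3 on day 2, and only reached the 1028 and 1028 of ESCs on day 5, with 1579 and 1805 (log2 difference 3.85, SE 0.20, adjusted p = 9.01e-06). Dsg3, the basal cadherin of stratified epithelia, was 266 and 84.4 on day 2, 540.3 and 494 on day 5 and 313 and 247 among X-GFP–negative cells. From day 5 to the X-GFP–negative cells Dsg2 fell to 1431 and 1447 (log2 difference -0.23, SE 0.09, adjusted p = 0.0555), and so did Dsg3 (log2 difference -0.89, SE 0.14, adjusted p = 0.00124). Dsc3 did not exceed 77.9 and Dsc1 13.2. The members lie mostly in the family's clusters, 11 on chromosome 11 (type I keratins, Jup and Evpl), 9 on chromosome 15 (type II keratins and Krt18) and 7 on chromosome 18 (all desmosomal cadherins).

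Dsg1b encodes a desmoglein of differentiated epidermis. It was 0 and 3.81 in ESCs, at 0 reads in both NPC libraries, 431 and 304 on day 2, 246 and 183 on day 5 and 214 and 189, 156 and 169 and 67.0 and 59.8 among X-GFP–negative, –medium and –high control cells. Day 2 was at least 132-fold above NPCs and was its highest control level. The step to day 5 was lower in both libraries (log2 difference -0.77, SE 0.22, adjusted p = 0.0177), but without day 2 control replicate 1 the adjusted p was 0.12. Dsg1a, a close copy that can share its reads, was 50.9 and 30.8 on day 2 and 19.4 and 21.3 on day 5 (log2 difference -0.93, SE 0.35, adjusted p = 0.0495), and its call was lost without the same library.

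Of the plaque proteins, Dsp links keratin filaments to the desmosome. It was 186 and 227 in NPCs, 8242 and 6064 on day 2, 19121 and 16179.9 on day 5 and 32315 and 32103 among X-GFP–negative cells, each above the population before it (log2 difference 5.10, SE 0.17, adjusted p = 3.16e-05, then 1.31 ± 0.14 and 0.87 ± 0.08). Among X-GFP–medium and –high control cells the means of Dsp were 18686 and 8553. The tetraspan membrane protein Perp was 176 and 247, 4833 and 3327, 8337 and 7043 and 14654 and 12596 in the same order. The plakophilins differed in timing. Pkp1, the plakophilin of stratified epithelia, was 4.86 and 3.51 in NPCs and already 1500.0 and 1318 on day 2. Pkp3 was 26.5 and 10.9 on day 2, under the 162 and 159 of ESCs, and 638 and 723 on day 5 (log2 difference 5.23, SE 0.38, adjusted p = 2.91e-05). Pkp2, the plakophilin found also in heart, was 344 and 422 in NPCs and 394 and 367 on day 2 (log2 difference -0.00, SE 0.15, adjusted p = 0.991), and Jup, which also serves adherens junctions, was 1294 and 2240.1 and 2164 and 1646 (log2 difference 0.15, SE 0.27, adjusted p = 0.649). Jup then rose to 8349.6 and 7383 on day 5 (log2 difference 2.06 ± 0.13, adjusted p = 1.78e-05). Pkp1 and Trp63 each overlap another gene on the same strand, so part of their reads may belong to it.

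The cornified envelope genes include those of the desmosome-bound scaffold and those of the terminal envelope, and their levels did not divide along that line. Ppl and Evpl, plakins that anchor keratins to the envelope, were 1470.2 and 1316 and 4212 and 4198 among X-GFP–negative cells, against 4.86 and 2.64 and 23.3 and 35.1 in NPCs. Tgm1, the transglutaminase that cross-links the envelope, was 1019 and 1001 in ESCs, 11.7 and 6.15 in NPCs, 204 and 142 on day 2, 1417 and 1195 on day 5 and 2454 and 2392 among X-GFP–negative cells. Sprr1a, whose window above holds the core promoter box and the AP-1 letters, was at 0 reads in ESCs and NPCs, 31.6 and 5.96 on day 2, 135 and 65.7 on day 5 and 685 and 654 among X-GFP–negative cells, where it rose 6.68-fold over day 5 (log2 difference 2.82, SE 0.29, adjusted p = 0.000157). Ivl (involucrin) did not exceed 69.0 and Lor (loricrin) 8.78 in any library. Sfn, the 14-3-3 protein of epithelial cells, was 762 and 533 in ESCs, 3713 and 4088 on day 5 and 2869 and 2498 among X-GFP–negative cells, a fall between the last pair (log2 difference -0.54, SE 0.09, adjusted p = 0.00134). Vsig8 was 5.9 and 5.71 in ESCs, 1.94 and 0 in NPCs, 142 and 169 on day 2, 151 and 105 on day 5 and 517 and 468, 740.2 and 729 and 346 and 249 in the 3 control fractions, its highest mean being among X-GFP–medium cells.

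**Figure D3:**
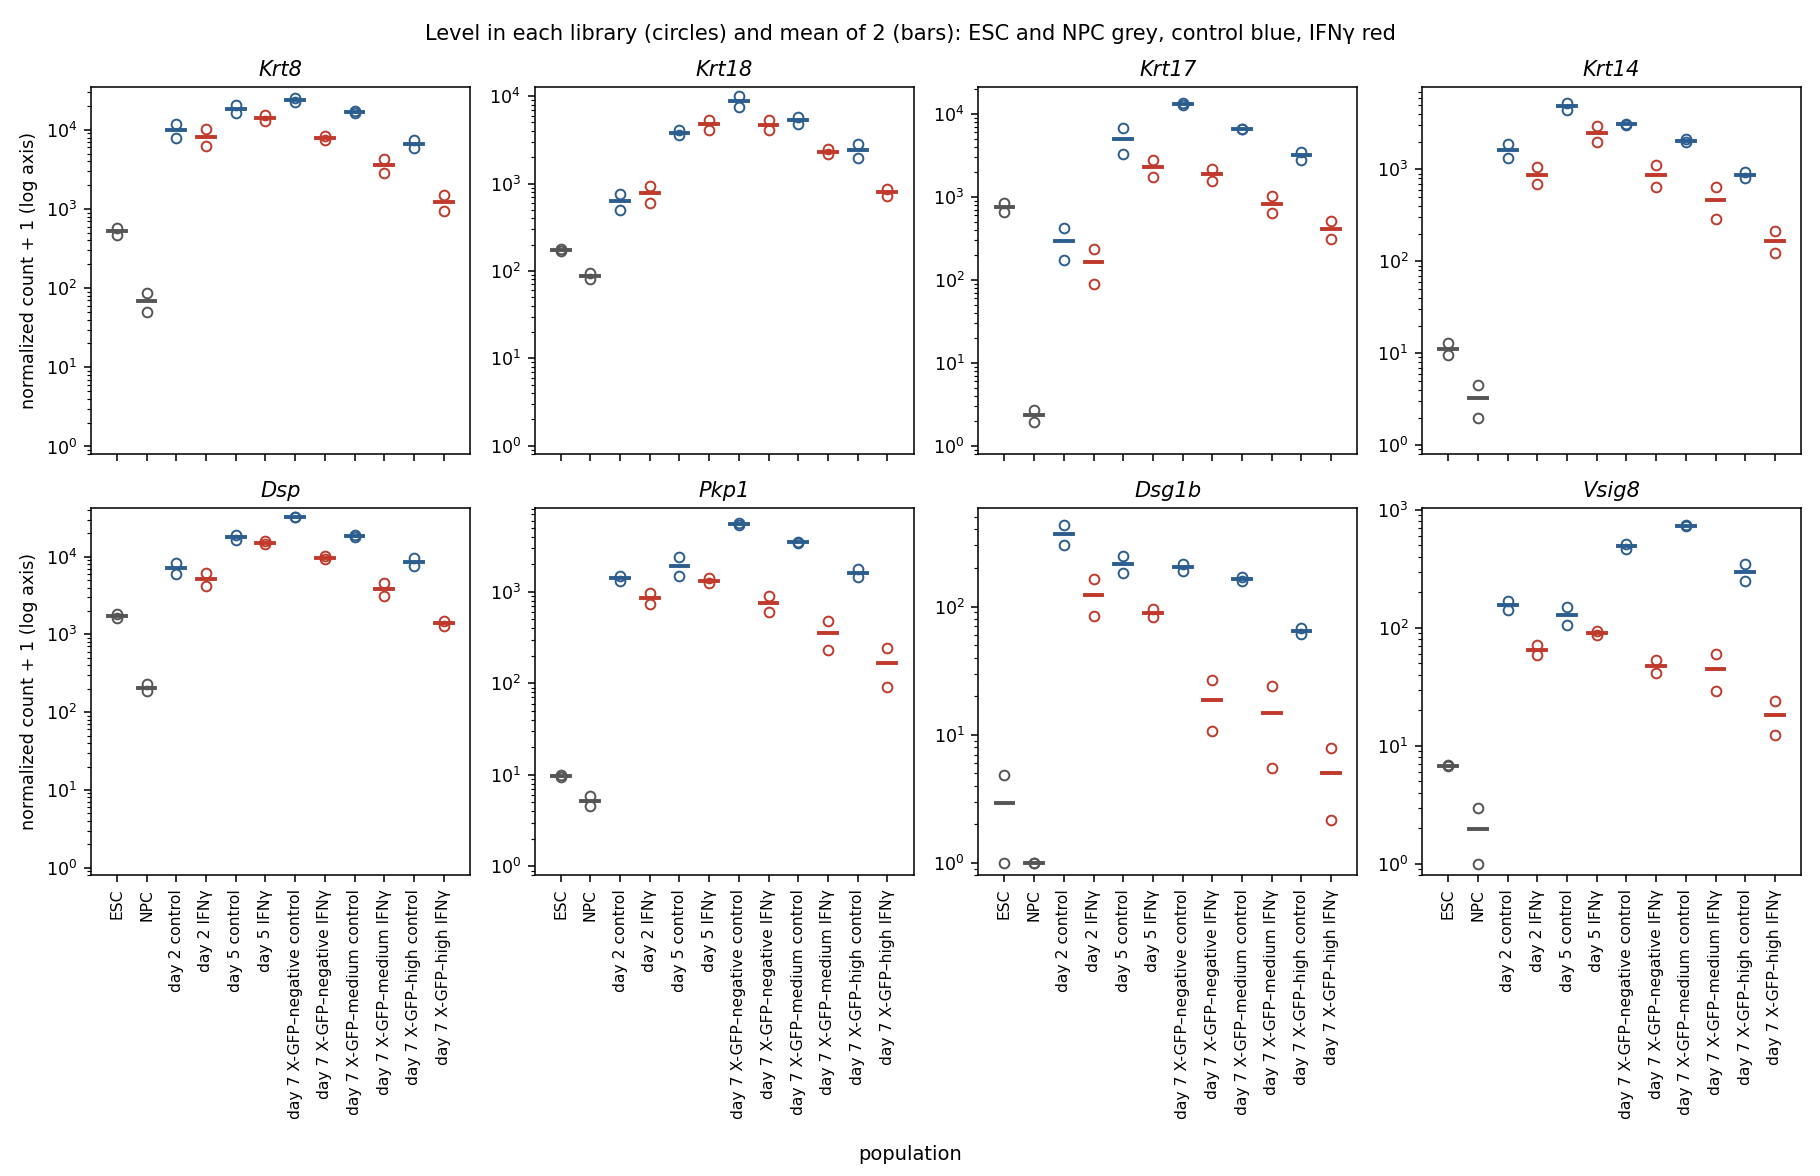
Levels of 8 genes (Krt8, Krt18, Krt17, Krt14, Dsp, Pkp1, Dsg1b and Vsig8) in every library by population, with log-scaled axes and separate points for control and IFNγ libraries. In control cells Krt17, Dsp and Pkp1 are highest in the X-GFP–negative fraction and Vsig8 in the X-GFP–medium fraction, and with IFNγ the day 7 points of all 8 genes lie below the control points of the same fraction.

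Counted over the comparisons along the control course, 33 of the 40 genes passed the mean filter between NPCs and day 2, and 29 of them rose and 1 (Krt10) fell. Of all genes tested in that comparison, 31.6% rose and 37.6% fell. Only 11 members had means of 10 or more in both populations, 8 of them higher and 1 lower on day 2 without overlap (all genes 38.2% and 45.6%), and the others passed the filter through their day 2 level, so the 29 are a description. The Y-linked sum was 218 to 253 on day 2 and at most 1.94 in NPCs. Pkp2, Jup and Trp63 did not pass the test. In the day 2 control cells the first replicate was higher than the second for 33 of the 35 members above 10, by a median of 1.46, against 50.2% of all genes. When day 5 took the place of day 2 against NPCs, 33 of 34 members were higher and 1 lower (all genes 38.6% and 41.5%), again mostly through genes low in NPCs, with 10 higher and 1 lower among the 11 with means of 10 or more in both. The Y-linked sum was at most 5.89 on day 5.

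Between day 2 and day 5, 25 of 34 members rose and 2, Dsg1a and Dsg1b, fell (all genes 34.9% up and 35.6% down), with a median log2 difference of 1.41 over the members and 0.00 over all genes. Day 5 cells were selected for SSEA1 and day 2 cells were not, so day and sort cannot be told apart here. The Y-linked sums also differed, at 218 to 253 on day 2 and at most 5.89 on day 5. All 6 tested simple epithelial keratins and all 5 tested cornified envelope genes rose. From day 5 to the X-GFP–negative cells from day 7, 20 of 35 members rose and 9 fell (all genes 34.2% and 29.5%). All 6 plaque and membrane genes rose, whereas 3 of the 6 tested cadherins fell. The 9 that fell were Krt14, Krt13, Krt6a, Krt20, Dsg1a, Dsg2, Dsg3, Ivl and Sfn. In a fit to all 24 libraries the count of falls was 1. Day 5 cells were not split by X-GFP, so time and fraction cannot be told apart in this step. The member sum was 104061 and 84046 on day 5, and 97439 and 96409 and 51146 and 41991 in the X-GFP–medium and –high control fractions. In all comparisons with day 7 control cells, Dsg1b and Vsig8 are counted as a description, since their day 7 levels led to the choice of the genes.

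Across the day 7 control fractions, the members declined as the X-GFP signal increased. Of 35 tested, 25 were lower and 2 higher among X-GFP–medium than among X-GFP–negative cells (all genes 25.2% and 21.9%). The 2 higher ones were Dsg3 (313 and 247, then 423 and 464) and Vsig8. In X-GFP–high against X-GFP–medium cells, 29 of 32 were lower and 1, Pkp2, was higher (all genes 32.7% and 31.4%), with a median log2 difference of -1.14 over the members. Pkp2 (1144 and 1105, then 1185 and 1290.5, log2 difference 0.14, SE 0.07, adjusted p = 0.0999) was not called without X-GFP–high replicate 2 (log2 difference 0.08) or X-GFP–medium replicate 1 (0.16) or 2 (0.11), nor by DESeq2. Krt17 was 13436 and 12669, 6543 and 6586 and 3519 and 2799.8 in the 3 fractions, Dsp 32315 and 32103, 18147 and 19224 and 9605 and 7502, and Pkp1 5716 and 5349.6, 3442 and 3496 and 1755 and 1467. Dsg2 was 1431 and 1447, 1467 and 1668 and 1785 and 1578, and it passed neither test. In the fit to all 24 libraries the step from X-GFP–negative to –medium had 12 lower and 0 higher calls.

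Even so, most members were higher in X-GFP–high control cells than in ESCs. The reprogramming cells were kept on feeders with doxycycline and ascorbic acid and the ESCs were not, so culture and population cannot be told apart here. Of 29 members tested, 28 were higher in them than in ESCs and 1, Krt10, was lower (all genes 37.9% and 37.8%). Of the 19 with means of 10 or more in both, 18 were higher and 1 lower, and the other 10 passed the filter only through their X-GFP–high level, so the 28 are a description. Krt8 was 7520.5 and 5869.7 against 572 and 471 (log2 difference 3.68, SE 0.11, adjusted p = 5.83e-12), Krt19 2064 and 1518 against 17.7 and 17.1, and Pkp1 1755 and 1467 against 8.84 and 8.56. Sprr1a and Krt6b, at 0 reads in ESCs, were at least 39.1-fold and 8.51-fold higher. Tgm1 differed least, at 1213 and 1061 against 1019 and 1001 (log2 difference 0.17, SE 0.08, adjusted p = 0.0704), and its call was lost without X-GFP–high replicate 1 (log2 difference 0.07) or ESC replicate 2 (0.15). The order X-GFP–negative, –medium, –high and ESC held without overlap of libraries for 24 of the 35 members above 10, against 16.7% of all genes. Beside this, the pluripotency sum was 20356 to 23226, 44512 to 45894 and 85102 to 89262 in the same fractions. Its part in the result was not tested.

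ESCs themselves expressed some of these genes. Against NPCs, 13 of the 18 members tested were higher in ESCs and 0 were lower in limma (all genes 42.2% and 43.4%), with 0 lower also at an unadjusted p under 0.05 and in edgeR, and 1 (Jup) in DESeq2. Of the 11 with means of 10 or more in both, 6 were higher and 0 lower, and Krt19 lay below NPCs in both ESC libraries without passing the test (adjusted p = 0.198). The other 7 higher ones passed the filter only through their ESC level, so the 13 are a description. Among those 7 were Dsg2, at 1028 and 1028 in ESCs and 5.83 and 4.39 in NPCs, and Krt17, at 844 and 655 and 0.972 and 1.76. Perp, Krt17, Sfn, Tgm1 and Krt8 were the most abundant per kilobase.

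With IFNγ on day 2, of 34 members tested, 5 fell, 29 did not pass the test and 0 rose, whereas 3.45% of all genes fell and 5.03% rose. The limma count of 0 that rose was 1 (Tgm1) at an unadjusted p under 0.05, and 0 by edgeR and DESeq2. Dsg1b was 431 and 304 in control cells and 162 and 83.1 with IFNγ (log2 difference -1.63, SE 0.33, adjusted p = 0.0435). Vsig8 was 142 and 169 and 70.1 and 58.4 (log2 difference -1.26, SE 0.20, adjusted p = 0.0193). Both were chosen for their day 7 difference, with earlier results of these data known. The day 2 libraries are other samples, and whether they share cultures or rounds of reprogramming with day 7 is not stated. The other 3 that fell were Pkp1 (1500.0 and 1318, then 977 and 740.1, log2 difference -0.72, SE 0.14, adjusted p = 0.0376), Krt14 (1900.2 and 1315, then 1059 and 687, log2 difference -0.89, SE 0.24, adjusted p = 0.0976) and Krt5 (log2 difference -1.57, SE 0.41, adjusted p = 0.0931), all with control and IFNγ libraries apart. Of the 34 members, 9 were lower in both IFNγ libraries without overlap, a share close to the 25.1% of all genes. Krt8 (11896 and 7801, then 10118 and 6326), Krt18 (751 and 494, then 942 and 601) and Tgm1 (204 and 142, then 356 and 225) did not pass the test, with overlapping libraries for Krt8 and Krt18 and both IFNγ libraries above the control for Tgm1 (adjusted p = 0.189). Compared by replicate number, Krt8 was lower and Krt18 higher with IFNγ for both numbers, though no pairing of the numbers is stated.

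The day 2 count depended on single libraries. It was 12 without IFNγ replicate 1, 3 without IFNγ replicate 2, 1 without control replicate 1 and 0 without control replicate 2, and in IFNγ cells the first replicate was higher for 30 of 33 members. The fibroblast markers summed to 50958 to 71342 in control and 36890.1 to 41339 in IFNγ cells of day 2. They summed to 31567 to 45997 in NPCs, where the Y-linked sum was at most 1.94, so these markers are not specific to feeders. The Y-linked sum on day 2 was 218 to 253 in control and 125 to 223 in IFNγ cells, with overlap. The part of either marker set in the falls was not tested.

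At day 5, 4 of 34 members fell with IFNγ, 0 rose and 30 did not pass the test (0.535% of all genes fell and 1.65% rose). The limma count of 0 that rose was 4 at an unadjusted p under 0.05 (Krt5, Krt7, Krt18 and Tgm1), and 0 by edgeR and DESeq2. Dsg1b was 246 and 183 in control and 94.9 and 81.5 in IFNγ cells (log2 difference -1.26, SE 0.21, adjusted p = 0.0592), Krt14 5258 and 4383 and 2942 and 1983 (log2 difference -0.99, SE 0.18, adjusted p = 0.0712), Krt13 1928 and 1707 and 1122 and 825 (log2 difference -0.91, SE 0.15, adjusted p = 0.0577), and Dsg1a 19.4 and 21.3 and 5.17 and 3.95 (log2 difference -1.95, SE 0.39, adjusted p = 0.0904). Krt17 (6747 and 3328, then 2787 and 1745) and Krt19 (2676 and 1238, then 1068 and 739) were lower in both libraries by more than a log2 difference of 1 without passing the test (adjusted p = 0.178 and 0.2). Vsig8 was 151 and 105 and 94.0 and 86.2, and it did not pass (adjusted p = 0.325). Of the 34 members, 17 were lower without overlap (all genes 26.8%). Without 1 library the number that fell was 11 (IFNγ replicate 1), 2 (IFNγ replicate 2), 0 (control replicate 1) or 8 (control replicate 2). At this time the Y-linked sums were at most 8.70 in the libraries of both arms.

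The difference between the day 2 and day 5 effects of IFNγ was tested directly, and 0 of 34 members passed in limma (2, Krt5 and Vsig8, at an unadjusted p under 0.05). In the same test 0.202% of all genes were higher and 0.474% lower on day 5. For Vsig8 the log2 effects were -1.26 on day 2 and -0.48 on day 5, a difference of 0.78 (adjusted p = 0.487).

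**Figure D4:**
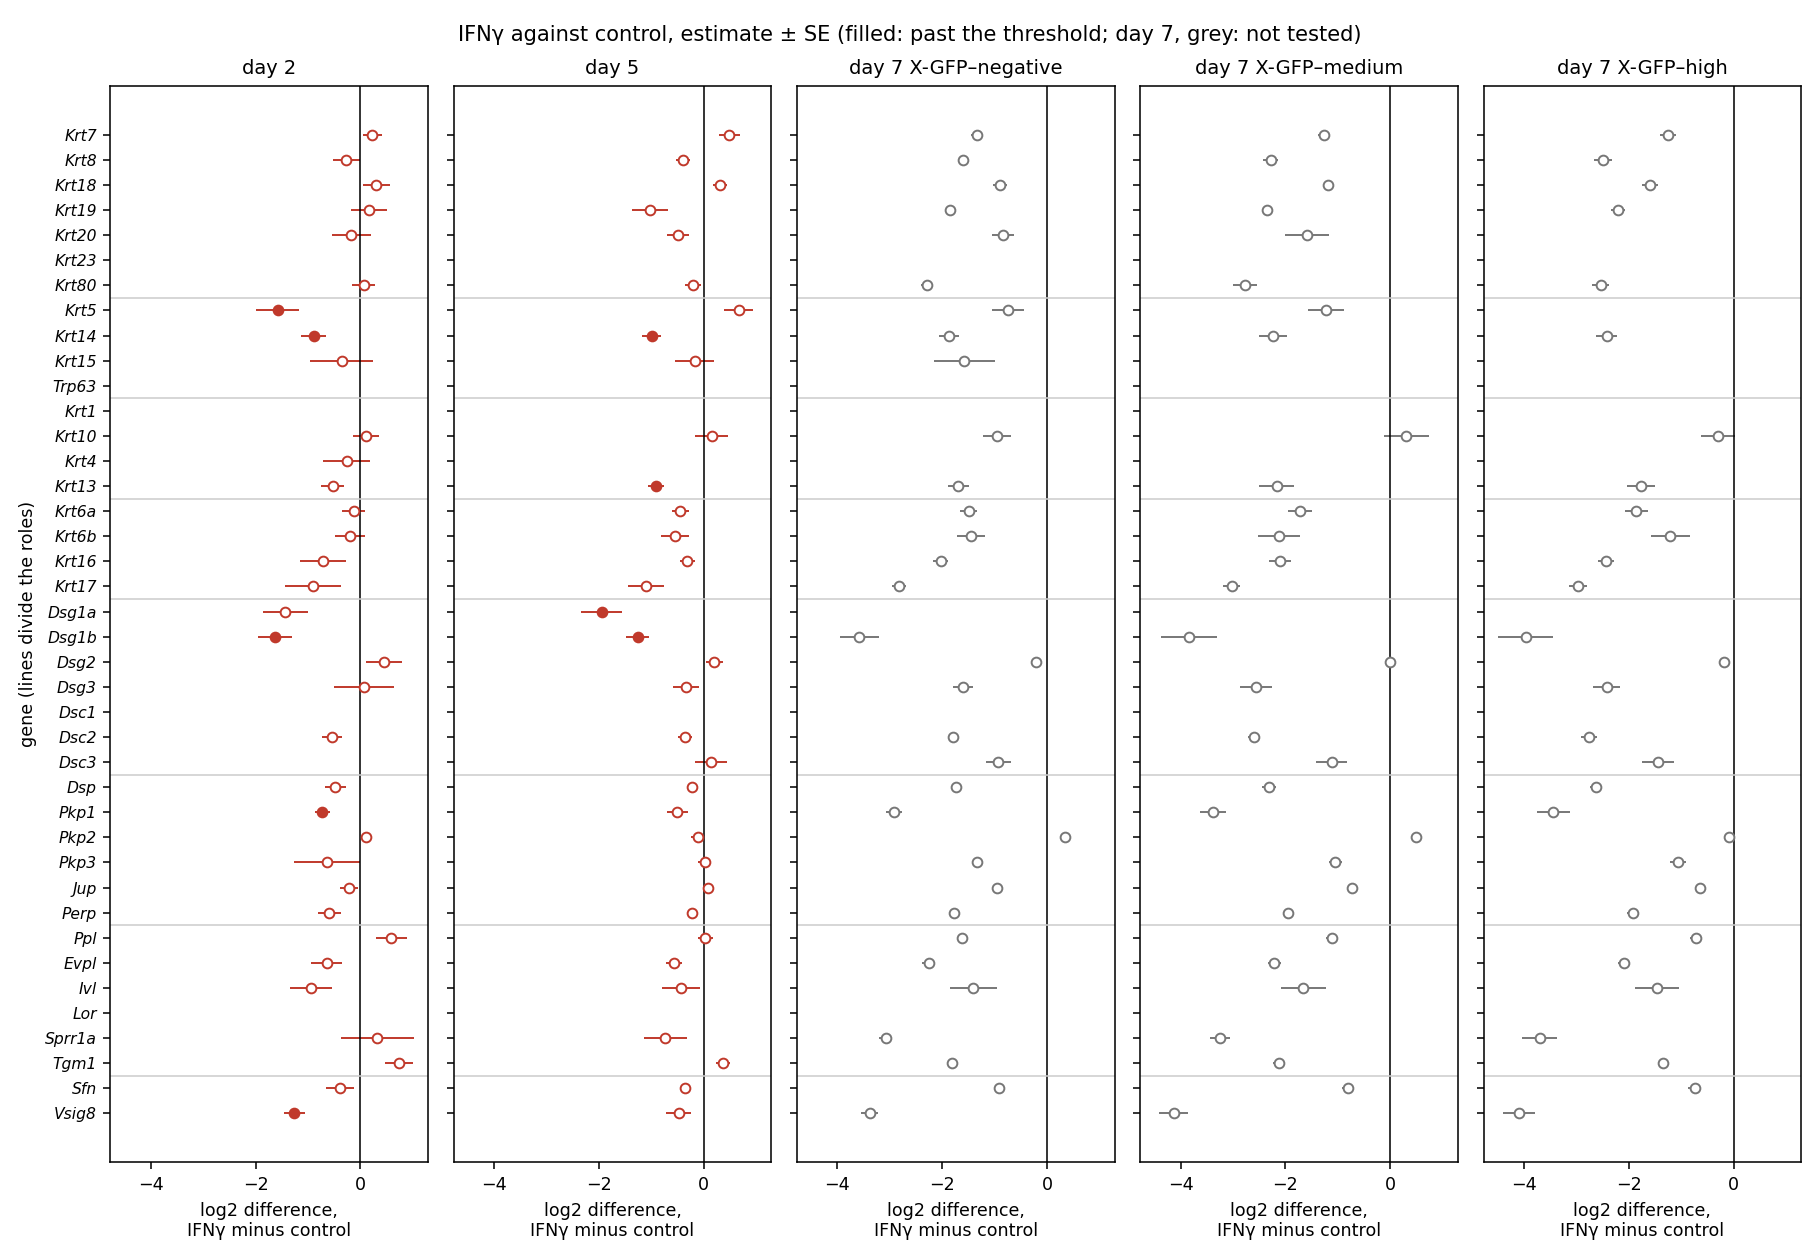
Difference between IFNγ and control (log2 of normalized count + 1; point, estimate; bar, SE) for the members with a mean above 10 on day 2, on day 5 and in the 3 fractions from day 7, where filled points passed the threshold and grey points were not tested. Dsg1b sits at -1.63 on day 2, -1.26 on day 5 and between -3.58 and -3.96 at day 7, while Pkp2 lies right of 0 among X-GFP–negative and –medium cells. The day 7 points, filled or not, are a description.

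At day 7, 2 days after the end of IFNγ, the gene set was lower with IFNγ in every fraction. This is the contrast that led to the choice of the genes, so the values are a description. In X-GFP–negative cells, 32 of 33 members were below the control by the limma threshold and 1, Pkp2, was above (30.8% and 31.1% of all genes). In X-GFP–medium cells 29 of 32 were lower and 1, Pkp2, higher (29.6% and 33.3%), and among X-GFP–high cells 27 of 30 were lower and 0 higher (20.4% and 18.1%). The choice of genes started from this contrast, so these counts are no test of the members. The members' median level with IFNγ was 32.6%, 24.5% and 28.5% of the control level in the 3 fractions.

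Dsg1b was 214 and 189 among X-GFP–negative control cells and 9.67 and 25.7 with IFNγ, 156 and 169 and 4.48 and 23.0 among X-GFP–medium cells, and 67.0 and 59.8 and 1.14 and 6.93 among X-GFP–high cells. Vsig8 was 517 and 468 and 40.8 and 52.5, 740.2 and 729 and 28.0 and 59.6, and 346 and 249 and 11.4 and 23.1. Both genes had all IFNγ libraries below all control libraries of each fraction. Pkp1 was 13.5%, 10.2% and 10.3% of the control in the 3 fractions, Krt17 14.3%, 12.6% and 13.1%, and Sprr1a 11.7%, 10.1% and 7.08%. The simple epithelial pair differed by less than these 3 genes, beside a median over the members of 32.6%, 24.5% and 28.5%. Krt8 was 33.0%, 21.0% and 18.2% of control, and Krt18 53.6%, 43.7% and 32.7%. Dsg2, the cadherin shared with ESCs, was 86.4%, 99.0% and 87.4% of control, with the IFNγ libraries below the control among X-GFP–negative and –high cells and overlapping among X-GFP–medium cells. Pkp2 was 1598 and 1552 with IFNγ and 1281 and 1194 without among X-GFP–negative cells.

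Comparing fractions across the arms, the X-GFP–negative IFNγ cells lay below the X-GFP–medium control cells without overlap for 29 of 35 members (all genes 39.7%) and above them for 1 (all genes 37.2%). They lay below the X-GFP–high control cells for 11 of 32 (all genes 41.1%) and above them for 13 (all genes 39.5%). The X-GFP–medium IFNγ cells lay below the X-GFP–high control cells for 20 of 33 (all genes 34.5%) and above them for 2 (all genes 32.4%). Within the IFNγ arm the order X-GFP–negative, –medium and –high held without overlap for 18 of 33 members (all genes 19.3%). The pluripotency sum was 32124 to 34294, 72560.4 to 74758 and 102566 to 105288 in the IFNγ fractions, each above its control fraction. The trophoblast sum was 3072 to 3305 in control and 3121 to 3216 in IFNγ X-GFP–negative cells. It was 1987 to 2040 and 2182 to 2281 among X-GFP–medium cells, and 1714 to 1796 and 1337 to 1402 among X-GFP–high cells. The trophoblast list includes the member Krt7, so its sum is not independent of the members. In X-GFP–negative cells the mean of Krt7 was 1298 in control and 512 with IFNγ. Of the same list, the means there were 290 and 55.5 for Elf5 and 1272 and 1884 for Tfap2c. The sum therefore held changes in both directions. The fibroblast sum was 1590.1 to 1639 in control and 1349 to 1407 in IFNγ X-GFP–negative cells, 1434 to 1469 and 699.7 to 773 in X-GFP–medium cells, and 845 to 853 and 775 to 776 in X-GFP–high cells. The neural precursor sum was 5164 to 5312 and 5913 to 6020.2, 3409 to 3620.2 and 2210.0 to 2407, and 2199.9 to 2238 and 1316 to 1423 in the same order. Primitive endoderm markers summed to 734 to 752 in control and 1817 to 1897 in IFNγ X-GFP–negative cells. They summed to 656 to 666 and 1145 to 1236 in X-GFP–medium cells, and 525 to 530 and 521 to 546 in X-GFP–high cells. The part of these populations in the member values was not tested.

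Genes around the keratin and desmosome program were read from lists of epithelial regulators, adhesion and tight junction genes, hemidesmosome genes, other cornified envelope genes and non-keratin filaments. Of the 15 regulators, 13 of 14 tested were higher on day 2 than in NPCs, where all genes had 31.6%, and 7 of the 13, among them Ovol1 and Esrp2, passed the filter only through their day 2 level. From day 2 to day 5, 12 of 15 rose (all genes 34.9%). Of the 9 hemidesmosome genes, 9 were higher by day 2, 8 of them with means of 10 or more in both, among them Itgb4, the integrin that anchors keratins to the basement membrane (16.5 and 16.7, then 1834 and 1141). Of 19 adhesion genes, 16 were higher and 1, Cldn1, lower, and of 9 tested cornified envelope genes, 8 were higher and 1, Elovl4, lower, with 6 of the 16 and 6 of the 8 under 10 in NPCs. Krtdap, a keratinocyte secreted protein, was 0 and 0 in NPCs and 1896 and 1886 on day 2. The non-keratin filaments moved both ways, with 5 of 13 up and 8 down, including a rise of Lmna and a fall of Nefm. Vimentin (Vim), the filament of mesenchymal cells, fell from 34284 and 34148 on day 2 to 1962 and 1719 on day 5 (log2 difference -4.22, SE 0.08, adjusted p = 5.89e-07).

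With IFNγ, at most 2 genes of each list passed the test in either direction on day 2 or day 5. Of all genes, 3.45% were lower and 5.03% higher on day 2, and 0.535% and 1.65% on day 5. In lists this short, a single call is not a result about the list. At day 2 the regulators had 1 of 14 lower (Esrp2, an epithelial splicing factor, log2 difference -0.73, SE 0.19, adjusted p = 0.0949), the cornified genes 2 of 9 (Krtdap, log2 difference -0.91, SE 0.07, adjusted p = 0.000817, and Elovl4), the hemidesmosome genes 1 of 9 (Itga6) and the adhesion genes 1 of 19 (Marveld2). Of the 14 non-keratin filaments, Prph (log2 difference 1.16, SE 0.14, adjusted p = 0.00748) and Ina rose and Nefl fell. At day 5 the regulators had 2 of 15 lower, Ehf (log2 difference -0.76, SE 0.13, adjusted p = 0.0652) and Esrp2, the adhesion genes 0 of 18, the hemidesmosome genes 0 of 9 and the cornified genes 0 of 9 by limma, where at an unadjusted p under 0.05 these 3 lists had 0, 3 and 2 lower. At day 7, as a description and among X-GFP–negative cells, 11 of 15 regulators, 18 of 19 adhesion genes, 6 of 9 hemidesmosome genes and 11 of 12 cornified envelope genes were lower with IFNγ (all genes 30.8%), while 2 regulators, Klf5 and Tfap2c, and 1 hemidesmosome gene, Dst, were higher (all genes 31.1%). Among the cornified genes with a mean of at least 100, Tchh and S100a14 were the lowest relative to control there. Vim was higher, at 1007 and 874 without and 4339.6 and 4672 with IFNγ.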

How the data were processed

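RNA-seq was analyzed in 24 libraries of ribosomal RNA-depleted stranded total RNA (TruSeq), in 12 populations of 2 replicates. Per the labels and the study's methods, the authors aligned reads with STAR to mm10 with SNPs of both strains masked, filtered them with WASP, counted them per gene with HTSeq 0.6.1 and deposited normalized counts, which are counts divided by DESeq2 size factors (unit: signal). The strand setting and annotation release used for counting were not given in the sources used here. Gene symbols were matched by Ensembl identifier to GENCODE vM21 (95.2% of identifiers), which also gave exon lengths. All nonzero values were whole multiples of a step per library, within 0.1, so read counts were recovered for the alternatives (100% whole).

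The members and gene lists were chosen with earlier results of these data known. Each comparison was fitted in limma 3.58.1 (trend, R 4.3.3) on log2(normalized count + 1), with its 4 libraries and the genes with a mean above 10. The test was two-sided, p-values were adjusted by Benjamini-Hochberg over all those genes, and the threshold was 0.1. The pseudocount of 1 understates changes of low genes. A fold against a population at 0 reads was bounded from 3 reads over the group. With 2 libraries a group, exact permutation tests cannot go below p = 0.33. A member's libraries were all given if it was called, averaged 100 or more in either group and had no overlapping libraries, Dsg1b and Vsig8 always, and from each other list at most 2 genes per comparison were to be named, those with the largest difference past the threshold and a mean of at least 100. Genes outside this rule (the calls of 5 or fewer, Vim at day 7, and Krt90 and Krt42) were named after their values were seen. Alternatives were a pseudocount of 0.1, no filter, rescaling to equal totals, 1 fit to all 24 libraries, a replicate block, DESeq2 1.42.0 and edgeR 4.0.16 on recovered reads, and leaving out each library. The interaction of IFNγ and day, day 5 in place of day 2 against NPCs, and a crossed pairing were added after seeing the data. The fits were tested on simulated data. The IFNγ response marker list is not reported here. Python 3.11.15 (pandas 2.3.3, numpy 2.4.6, matplotlib 3.10.9) was used for the descriptions. Proportions of X-linked reads from the Musculus X were also deposited and not used, since no member is X-linked. Depth was 24746109 to 37056508 reads on genes per library, and mt-Rnr2 took 9.02% to 19.1%.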

Additional observations from a re-analysis of the deposited data

Results flagged for a closer look

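Krt5, the type II partner of Krt14, was flagged because its difference with IFNγ pointed in opposite directions at day 2 and day 5. It was 30.6 and 22.8 in control and 11.2 and 5.94 in IFNγ cells at day 2, and 36.2 and 46.2 and 56.9 and 75.1 at day 5, so both IFNγ libraries lay below the control at day 2 and above it at day 5. The log2 effects were -1.57 and 0.66, a difference of 2.24 (SE 0.50), which the direct test in limma did not pass (adjusted p = 0.155). Krt14 was lower with IFNγ at both times.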

How the results depend on the processing

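Each called difference of a member kept its direction under all settings run (2959 values on the same side of the threshold, 151 weaker, 0 reversed), while small counts of calls moved. Without the filter on low values, the members lower in ESCs than in NPCs were 4 (0 as reported), those lower at day 2 than in NPCs 2 (1), those lower with IFNγ 1 (5) at day 2 and 0 (4) at day 5, and those higher with IFNγ 2 (1) in X-GFP–negative and in X-GFP–medium cells. That setting tests more genes, and for the others the cause was not tested. In 1 fit to all 24 libraries, lower counts were 1 in ESCs against NPCs, 0 (2) from day 2 to day 5, 1 (9) from day 5 to X-GFP–negative cells, 12 (25) from X-GFP–negative to –medium, and 3 and 2 with IFNγ at day 2 and day 5, and higher counts were 0 (2) from X-GFP–negative to –medium and 1 (0) with IFNγ at day 2. By DESeq2, lower counts were 1 in ESCs against NPCs, 0 from NPCs to day 2, 1 from day 2 to day 5, and 3 and 8 with IFNγ at day 2 and day 5. The 1 gene higher on the step from X-GFP–medium to –high (Pkp2) became 0 with a pseudocount of 0.1, without the filter, in the fit to all libraries and by DESeq2. Without 1 library, counts ranged from 0 to 2 (lower, ESCs against NPCs), 0 to 1 (lower, NPCs to day 2), 0 to 3 (lower, day 2 to day 5), 0 to 2 (higher, X-GFP–medium to –high), 0 to 12 lower and 0 to 1 higher (IFNγ, day 2) and 0 to 11 lower and 0 to 4 higher (IFNγ, day 5).

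Replicate numbers carry no stated pairing. Same-numbered libraries deviated together with r = 0.406 for IFNγ at day 2 and 0.363 at day 5, -0.146 for NPCs and day 2, and 0.00979 to 0.187 elsewhere, with 2 pairs each. A replicate block, which leaves 1 residual degree of freedom, gave 18 lower and 4 higher with IFNγ at day 2, 18 lower and 4 higher at day 5, and 2 higher from X-GFP–medium to –high. A crossed pairing of NPCs and day 2, added after seeing the data, gave 29 higher and 1 lower. Lor was under the filter on low values in every comparison and was not tested.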

Other observations

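The table held 54 keratin genes, 36 of them outside the 40 described, and 12 of the 36 had a mean above 10 in some population. Only 2 had a mean above 100, and they were looked up after their values were seen. Krt90, a type II keratin, was 843 and 651 in day 2 control cells and 288 and 254 with IFNγ, and 726 and 551 without and 136 and 135 with IFNγ in the X-GFP–negative fraction. Krt42, a type I keratin, was highest in ESCs, at 465 and 307.

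Replicates of a population could differ in the members together. The second replicate was the higher one for 11 of 11 members above 10 in NPCs (median ratio of first to second 0.713) and for 29 of 33 in the IFNγ X-GFP–medium cells (0.683), where the first replicate was higher for 50.4% of all genes in each.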
